A study of Rattus norvegicus with 9 samples.

Results

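The inflammasome and pyroptosis genes examined here were 10 of the 30507 rows of the deposited gene tables, picked by symbol from a written list, with no threshold on a measured value. Earlier results of these data were known when the genes were chosen, so the shares of all genes given below are a description only. They were the sensors Nlrp3, Nlrc4 and Aim2, the adaptor Pycard, the inflammatory caspases Casp1 and Casp4, the pore former Gsdmd, the cytokines Il1b and Il18, and the receptor antagonist Il1rn. Each symbol stood on 1 row, and all 10 passed the filter on low counts in every comparison.

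The libraries were mRNA of the thoracic spinal cord segments around the contusion site, all cells included, from female wild-type Sprague-Dawley rats, 8 weeks old at the start, with 3 libraries in each of 3 groups at 35 days post-injury (dpi). Sham rats had a laminectomy and no contusion, although the labels list them as untreated. SCI rats had a spinal cord contusion at a thoracic level and carried a plug with no electrode. SCI + SCS rats had the same contusion, an epidural electrode below it, and high-frequency stimulation from 1 dpi, given 2 h daily (10 kHz, 0.12 mA, pulse width 30 µs). No library came from contused rats with an electrode and no stimulation, so electrode and stimulation cannot be told apart here. The 3 libraries of a group carry replicate numbers and no animal identifiers, so a P-value measures the spread between these libraries.

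Inflammasomes are protein complexes that assemble in the cytosol when a sensor meets microbial material or a sign of cell damage. The sensor recruits the adaptor, the adaptor gathers caspase-1, and the caspase matures the cytokine precursors and cleaves gasdermin D, whose fragment opens pores in the plasma membrane and can end in pyroptosis, a lytic cell death. In the injured spinal cord these proteins are best known from microglia and infiltrating myeloid cells, and much of their control acts on protein cleavage, which mRNA does not show.

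Library totals lay between 62844376 and 88358570 counts. In whole tissue, a larger number of cells of a type and more RNA per cell cannot be told apart. The summed level of 6 of 7 pan-myeloid markers listed in the files was 449 to 519 CPM (counts per 1000000, scaled by TMM) in Sham, 1290 to 1688 in SCI and 1133 to 1341 in SCI + SCS. Fcer1g made up much of the Sham sum, at 344, 289 and 147 CPM. Without it the sum was 175 to 302 CPM in Sham and 877 to 1129 in SCI. All 8 phagocytic macrophage markers were listed, with a sum of 354 to 359 CPM in Sham, 2807 to 3671 in SCI and 1991 to 2442 in SCI + SCS. Of these, Spp1 made up much of the Sham sum, at 315, 232 and 199 CPM. It was at 294, 593 and 324 CPM in SCI and overlapped Sham. The sum of 7 homeostatic microglia markers was 177 to 239 CPM in Sham, 168 to 274 in SCI and 229 to 280 in SCI + SCS, and of these Siglech was at 0 in every Sham and every SCI + SCS library. The 8 neutrophil markers summed to 4.02 to 9.07, 15.4 to 31.6 and 20.3 to 40.4 CPM, and the 7 T and NK cell markers to 0.959 to 1.99, 21.2 to 23.3 and 7.47 to 14.0 CPM, in the same order of groups. The 7 neuron markers, which check the labelled tissue, were all detected, with sums of 2850 to 5714, 531 to 1727 and 1540 to 2386 CPM. Skeletal muscle markers (17 of 22 listed) reached 4431 CPM in SCI replicate 1 and 1338 CPM in SCI replicate 3, against 47.8 in SCI replicate 2 and at most 153 CPM in the other 2 groups. The 7 adipocyte markers summed to 3.25 to 9.55 CPM in Sham, 88.6 to 117 in SCI and 27.3 to 43.9 in SCI + SCS, with Lep at 0 in every library. The part of these cell type markers in the results was not tested.

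The letters before the start site are shown for the adaptor, which had the largest fold change after contusion, and for the only pair of promoters that held a searched motif before the start. Promoter windows from RefSeq, build GRCr8, were matched for 7 of the 10 genes (Nlrp3, Aim2, Pycard, Casp1, Il1b, Il18 and Il1rn). Each line gives the 150 bases before the start, 5′ to 3′ on the strand of the gene, with a motif match in capitals. The gene positions given elsewhere are on mRatBN7.2, the build in the submitters' processing notes, and cannot be set against these.
Pycard, chr1:192033420-192033569, minus strand: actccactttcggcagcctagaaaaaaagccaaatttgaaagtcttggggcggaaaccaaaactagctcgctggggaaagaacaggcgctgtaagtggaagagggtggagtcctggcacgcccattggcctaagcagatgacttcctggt
Casp1, chr8:10872680-10872829, plus strand: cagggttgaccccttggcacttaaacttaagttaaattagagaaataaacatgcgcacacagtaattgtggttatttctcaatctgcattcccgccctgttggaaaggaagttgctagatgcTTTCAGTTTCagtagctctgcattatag
Aim2, chr13:88398472-88398621, plus strand: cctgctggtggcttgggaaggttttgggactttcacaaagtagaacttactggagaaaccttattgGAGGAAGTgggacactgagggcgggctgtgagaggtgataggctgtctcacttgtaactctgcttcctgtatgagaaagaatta

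The capitals in Casp1 are a match, on the opposite strand, to the ISRE core, the repeated letters at the heart of interferon-stimulated response elements, from 28 to 19 bases before the start. Those in Aim2 are the PU.1 core GAGGAAGT, letters bound by a factor of myeloid cells, from 84 to 77 bases before the start. Over the whole window of 250 bases before to 50 after the start and on both strands, the ISRE core was in 1 of the 7 promoters and the PU.1 core in 1 of 7, against 3.92% and 2.42% of all 33469 promoters of the table. The NF-kB motif was in 0 of 7 (5.02% of all promoters), the AP-1 letters TGANTCA in 1 of 7 (Il18, after the start, 7.33% of all) and the C/EBP letters TTGCNNAA in 1 of 7 (Il1b, after the start, 10.6% of all). A match is a description of letters in this window only.

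After contusion, all but 1 of these genes rose past the thresholds used here. In SCI against Sham, 9 of the 10 genes were differentially expressed genes (DEGs; edgeR quasi-likelihood test, Benjamini-Hochberg adjusted P under 0.05 and |log2FC| above 1), all 9 higher in SCI, where 13.4% of the 17822 genes tested were DEGs in that direction. The tenth gene, Nlrc4, was higher too but did not pass. Pycard differed most, with a 5.65-fold higher level in SCI, and Il1rn least among the DEGs, at 2.19-fold. The median log2FC of the 10 genes was 1.59, against 0.02 over all genes tested. In 9 of 10 genes the 3 SCI libraries all lay above the 3 Sham libraries, a separation found in 31.8% of all genes.

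**Figure D1:**
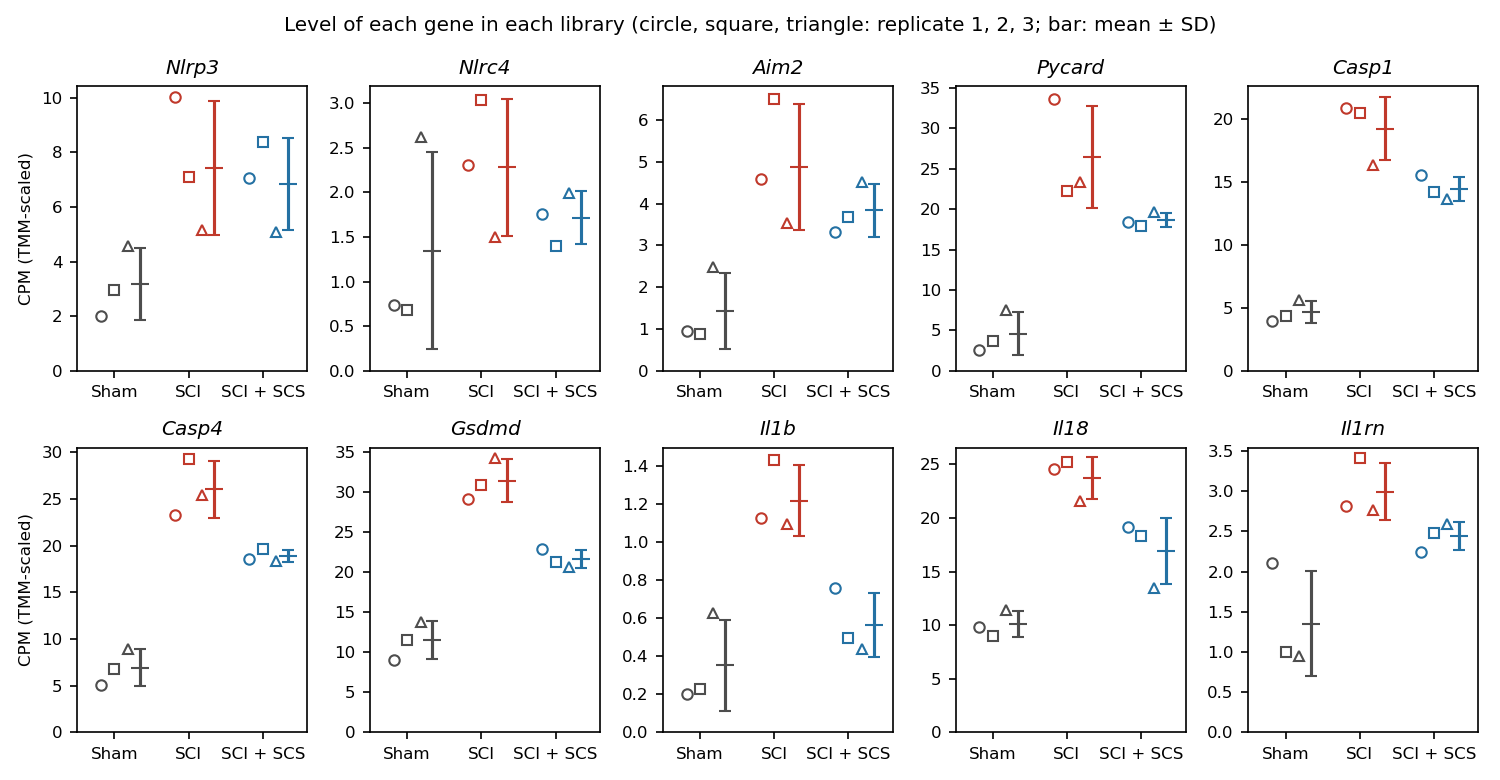
Level of each of the 10 genes (y axis, TMM-scaled CPM from 0, a scale of its own in each panel) in the 3 libraries of Sham, SCI and SCI + SCS. Circles, squares and triangles are replicates 1, 2 and 3, and bars are the mean ± SD (n = 3). SCI points lie above Sham points in every panel except Nlrc4, in which Sham replicate 3 stands at 2.62 CPM.

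Among the sensors, Nlrp3, which responds to many signs of cell damage such as potassium loss (chromosome 10, 44328566 to 44352811, plus strand), was at 2.0, 2.98 and 4.59 CPM in Sham and at 10.025, 7.11 and 5.16 CPM in SCI. The groups did not overlap, but the highest Sham library and the lowest SCI library were close. The log2FC was 1.20 (SE 0.37, adjusted P = 0.0354). Aim2, which binds double-stranded DNA in the cytosol (chromosome 13, 85866284 to 85906975, plus strand), was at 0.959, 0.875 and 2.48 CPM in Sham and at 4.58, 6.51 and 3.54 CPM in SCI. Its libraries did not overlap either, and its log2FC was 1.74 (SE 0.48, adjusted P = 0.0227). Nlrc4, which assembles with NAIP proteins that bind bacterial flagellin and secretion needles (chromosome 6, 20995266 to 21018248, plus strand), was at 0.739, 0.681 and 2.62 CPM in Sham and at 2.31, 3.04 and 1.5 CPM in SCI. Sham replicate 3 lay above SCI libraries 1 and 3, and the difference did not pass (log2FC 0.74, SE 0.59, adjusted P = 0.326). Without Sham replicate 3, Nlrc4 became a DEG, with a log2FC of 1.66 (adjusted P = 0.0207).

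Pycard encodes ASC, the adaptor that joins sensors to caspase-1 (chromosome 1, 182601174 to 182602955, minus strand). Its level was 2.61, 3.66 and 7.58 CPM in the Sham libraries and 33.7, 22.3 and 23.3 CPM in the SCI libraries. The lowest SCI library was well above the highest Sham library, and SCI replicate 1 stood above the other SCI libraries. The log2FC was 2.50 (SE 0.41, adjusted P = 0.00422), and 2.29 without SCI replicate 1 (adjusted P = 0.0138).

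The inflammatory caspases and their substrate moved with smaller errors. Casp1, the caspase that matures the cytokine precursors (chromosome 8, 2587831 to 2597383, plus strand), was at 4.01, 4.4 and 5.66 CPM in Sham and at 20.9, 20.5 and 16.4 CPM in SCI. Casp4, the caspase of the noncanonical pathway that senses bacterial lipopolysaccharide (chromosome 8, 2598876 to 2635092, plus strand), was at 5.05, 6.79 and 8.98 CPM in Sham and at 23.3, 29.3 and 25.5 CPM in SCI. Gsdmd, the gasdermin that both caspases cleave (chromosome 7, 107542083 to 107547055, plus strand), was at 9.10, 11.6 and 13.8 CPM in Sham and at 29.1, 30.9 and 34.3 CPM in SCI. In each of the 3 genes every SCI library lay far above every Sham library. The log2FC was 2.02 for Casp1 (SE 0.19, adjusted P = 0.00124), 1.89 for Casp4 (SE 0.23, adjusted P = 0.00189) and 1.43 for Gsdmd (SE 0.17, adjusted P = 0.00182). Casp1 and Casp4 are neighbours, 1492 bases apart on the same strand, and how the counting treated reads that match both was not given in the sources used here.

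The cytokines differed in abundance more than in fold. Il18 (chromosome 8, 50906960 to 50932887, plus strand), whose product drives interferon-gamma from lymphocytes, was at 9.81, 9.04 and 11.4 CPM in Sham and at 24.5, 25.2 and 21.5 CPM in SCI. Its libraries were tight and did not overlap (log2FC 1.22, SE 0.13, adjusted P = 0.0016). Il18 shares 248 bases with a row labelled Rps13 on the opposite strand, which held 82 to 496 counts per library, and whether strand was used in counting was not given in the sources used here. Il1b (chromosome 3, 116577010 to 116583406, minus strand), the main fever-inducing and leukocyte-recruiting cytokine of the pathway, rested on only 13, 20 and 55 counts in Sham and 89, 101 and 76 counts in SCI. These were 0.204, 0.227 and 0.629 CPM against 1.13, 1.43 and 1.10 CPM, above the level that 3 counts give in these libraries (at most 0.0477 CPM). The groups did not overlap, and Sham replicate 3 was the library nearest to SCI (log2FC 1.76, SE 0.50, adjusted P = 0.0263).

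Il1rn, which encodes the antagonist that occupies the IL-1 receptor without signalling (chromosome 3, 7111550 to 7127445, plus strand), was at 2.11, 0.999 and 0.949 CPM in Sham and at 2.82, 3.41 and 2.76 CPM in SCI. The highest Sham library was replicate 1 here, not replicate 3 as in the other genes. The log2FC was 1.13 (SE 0.37, adjusted P = 0.0411).

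Of the 9 DEGs, 5 stayed DEGs in all 17 alternative fits, namely Pycard, Casp1, Casp4, Gsdmd and Il18, whose adjusted P never exceeded 0.0217. The other 4 depended on single libraries. Nlrp3 was no longer a DEG without Sham replicate 1 (adjusted P = 0.0764), without Sham replicate 2 (0.107), without SCI replicate 1 (0.101) or without SCI replicate 2 (0.079). Aim2 lost its call without Sham replicate 1 (adjusted P = 0.0625), without Sham replicate 2 (0.0718) or without SCI replicate 2 (0.0724). Il1b kept its call only without Sham replicate 3 (adjusted P = 0.00551), with adjusted P from 0.0534 to 0.0882 when any other library was left out. Il1rn kept its call only without Sham replicate 1 (adjusted P = 0.00838), with adjusted P from 0.0744 to 0.127 otherwise. No direction changed in these fits, each of which has fewer libraries than the full comparison.

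**Figure D2:**
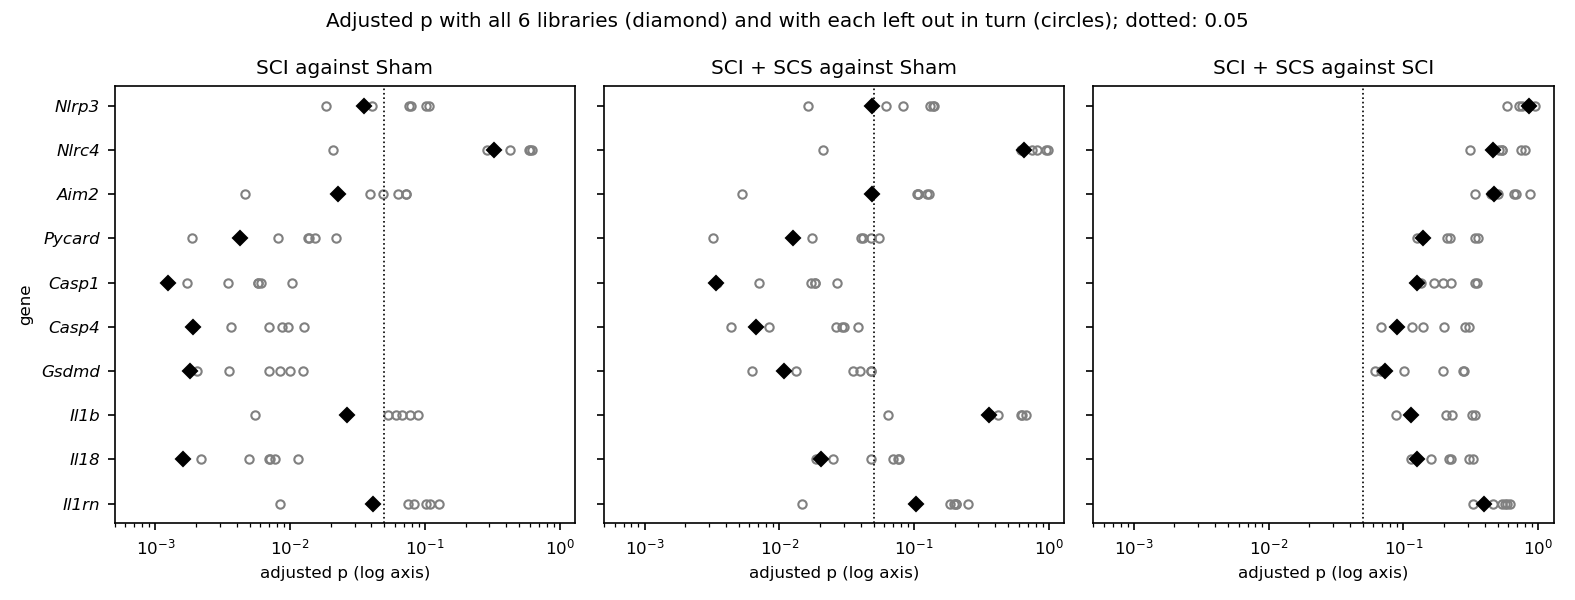
Adjusted P of each gene (x axis, log scale) in edgeR's quasi-likelihood test with all 6 libraries (diamonds) and after dropping each library once (circles), for the 3 comparisons; the dotted line is 0.05. In SCI against Sham the circles of Pycard, Casp1, Casp4, Gsdmd and Il18 all lie below the line, those of the other 5 genes fall on both sides, and in SCI + SCS against SCI no symbol lies below it.

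With stimulation, the levels of all 10 genes were lower than in SCI, and none was a DEG by edgeR. Stimulated rats had lower levels than SCI rats, to any degree, in 50.7% of the 17663 genes tested, of which 0% were lower DEGs and 0.00566% (1 gene, not a member) were higher DEGs. Il1b had the largest difference, 2.14-fold lower with stimulation, and Nlrp3 the smallest, 1.08-fold lower. The median log2FC of the 10 genes was -0.43, against -0.01 over all genes. The 6 pan-myeloid markers tested had a median log2FC of -0.38, the 8 phagocytic macrophage markers one of -0.62, and the 6 T and NK cell markers tested one of -1.76. The median was 0.14 for neutrophil, 0.05 for homeostatic microglia, 1.02 for neuron, -1.01 for adipocyte and -6.2 for skeletal muscle markers. It was 0.44 for astrocyte, 0.52 for oligodendrocyte, -0.47 for B and plasma cell, 0.31 for erythroid and -0.10 for keratinocyte markers. The part of these lists in the differences was not tested. The same 3 SCI libraries entered this comparison and SCI against Sham, so a high SCI value moves both, in opposite directions.

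At an unadjusted P under 0.05, 6 of the 10 genes were lower with stimulation (Pycard, Casp1, Casp4, Gsdmd, Il1b and Il18), against 10.9% of all genes. In 7 of 10 (these 6 and Il1rn) the 3 SCI + SCS libraries all lay below the 3 SCI libraries, against 13.2% of all genes. By DESeq2, 5 of the 10 had an adjusted P under 0.05 and were lower, namely Casp1, Casp4, Gsdmd, Il1b and Il18, where 6.41% of 17356 genes were, and 1 of them, Il1b, also passed the fold threshold, where 2.04% of genes did. As a DEG, Il1b was thus called by DESeq2 and not by edgeR, and the other 9 genes by neither.

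Il1b was at 0.758, 0.496 and 0.439 CPM in the SCI + SCS libraries, which is 54, 35 and 28 counts, each below the lowest SCI library. Its log2FC was -1.10 (SE 0.32), with an adjusted P of 0.114 by edgeR and 0.0324 by DESeq2. Leaving out a library moved the edgeR log2FC between -1.37 and -0.96.

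Gsdmd was at 22.9, 21.3 and 20.7 CPM with stimulation, and had the smallest adjusted P of the 10 genes by edgeR (log2FC -0.53, SE 0.10, adjusted P = 0.0731; DESeq2 adjusted P = 0.000267). Its SCI + SCS libraries lay between the groups, above every Sham and below every SCI library. Casp4 was at 18.6, 19.7 and 18.4 CPM (log2FC -0.45, SE 0.11, edgeR adjusted P = 0.0895, DESeq2 adjusted P = 0.00779). Casp1 was at 15.5, 14.2 and 13.7 CPM (log2FC -0.40, SE 0.13, edgeR adjusted P = 0.127, DESeq2 adjusted P = 0.0441). Both caspases also lay between the other groups without overlap.

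Pycard was at 18.4, 18 and 19.6 CPM with stimulation, a narrower range than in SCI (log2FC -0.49, SE 0.17, edgeR adjusted P = 0.141, DESeq2 adjusted P = 0.0557). Without SCI replicate 1, its log2FC was -0.30. That library had the highest Pycard level and the highest pan-myeloid and muscle marker sums, whose part was not tested. Il18 was at 19.1, 18.3 and 13.4 CPM (log2FC -0.48, SE 0.15, edgeR adjusted P = 0.127, DESeq2 adjusted P = 0.0394). SCI + SCS replicate 3 was the lowest Il18 library of the contused rats.

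The sensors and the antagonist had the largest adjusted P of the 10 genes in this comparison. Nlrp3 was at 7.07, 8.40 and 5.08 CPM with stimulation, within the range of SCI except for replicate 3, which lay just below it (log2FC -0.11, SE 0.29, adjusted P = 0.849). Its direction turned without SCI replicate 1 (log2FC 0.15) and without SCI + SCS replicate 3 (0.06). Aim2 was at 3.31, 3.67 and 4.53 CPM (log2FC -0.34, SE 0.26, adjusted P = 0.466) and Nlrc4 at 1.75, 1.40 and 1.99 CPM (log2FC -0.40, SE 0.31, adjusted P = 0.462), both overlapping SCI. Without SCI replicate 2 the log2FC was -0.08 for Aim2 and -0.15 for Nlrc4, and without SCI replicate 3 it was -0.53 and -0.64. Il1rn was at 2.24, 2.48 and 2.59 CPM, all below SCI, with a log2FC of -0.29 (SE 0.19, adjusted P = 0.393; -0.19 without SCI replicate 2). None of these 4 genes passed by DESeq2 either, with adjusted P from 0.394 to 0.856.

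Against Sham, 5 of the 10 genes were DEGs in SCI + SCS, all higher (Nlrp3, Aim2, Pycard, Casp1 and Casp4), where 6.28% of 17640 genes were. Gsdmd and Il18 also had an adjusted P under 0.05 but not the fold, which makes 7 of 10, against 16.2% of all genes. In 8 of 10 genes the SCI + SCS libraries all lay above the Sham libraries, against 27.3% of all genes. This comparison shares its Sham libraries with SCI against Sham. The log2FC of Pycard was 2.01 (SE 0.38, adjusted P = 0.0126), of Casp1 1.63 (SE 0.16, adjusted P = 0.00336) and of Casp4 1.45 (SE 0.21, adjusted P = 0.00671). That of Gsdmd was 0.91 (SE 0.16, adjusted P = 0.0109) and that of Il18 was 0.75 (SE 0.17, adjusted P = 0.0204).

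Nlrp3 (log2FC 1.10, adjusted P = 0.049) and Aim2 (log2FC 1.41, adjusted P = 0.0485) stood at the threshold in SCI + SCS against Sham. When a library was left out, both were DEGs only without Sham replicate 3 (adjusted P = 0.0164 for Nlrp3 and 0.00524 for Aim2), and otherwise had adjusted P from 0.0613 to 0.14 for Nlrp3 and from 0.105 to 0.129 for Aim2. Pycard lost its call without Sham replicate 2 (adjusted P = 0.0549). Il1b (log2FC 0.67, SE 0.53, adjusted P = 0.359) overlapped Sham, with Sham replicate 3 at 0.629 CPM above SCI + SCS replicates 2 and 3. Il1rn (log2FC 0.86, SE 0.35, adjusted P = 0.103) and Nlrc4 (log2FC 0.35, SE 0.55, adjusted P = 0.649) did not pass, and each became a DEG when 1 Sham library was left out. This was replicate 1 for Il1rn (log2FC 1.32, adjusted P = 0.0147) and replicate 3 for Nlrc4 (log2FC 1.27, adjusted P = 0.0211). Without Sham replicate 3, Gsdmd also passed the fold threshold (log2FC 1.06, adjusted P = 0.0062).

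**Figure D3:**
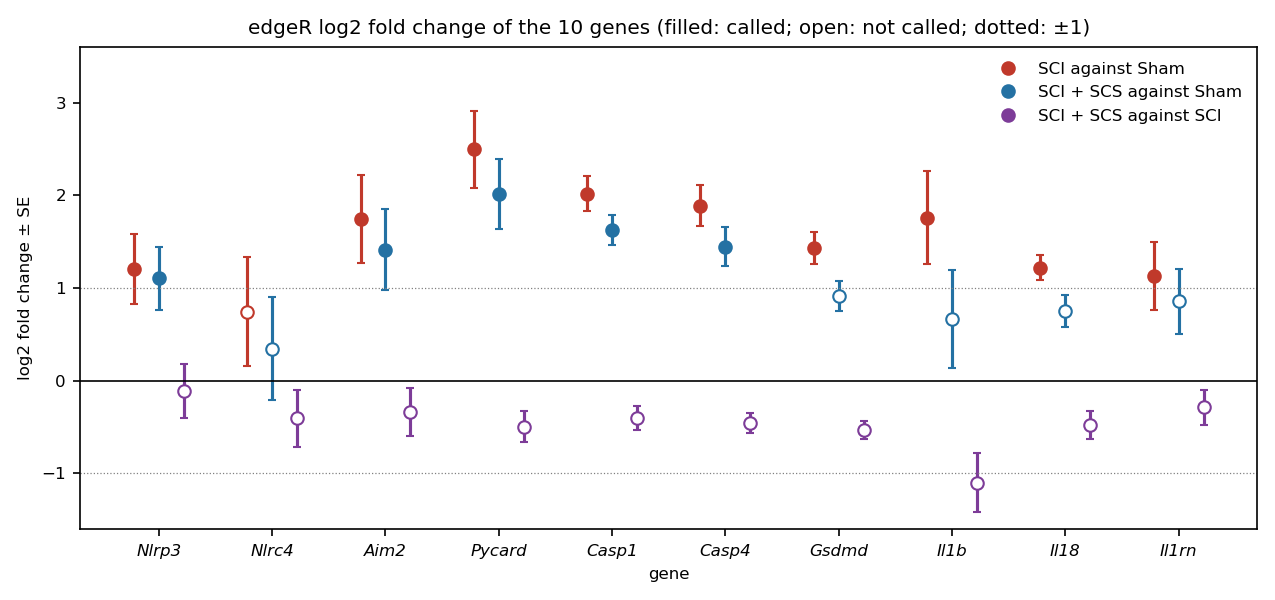
log2 fold change ± SE (y axis) of the 10 genes in the 3 comparisons, from edgeR. Filled points are DEGs, open points are not, and dotted lines mark a log2FC of 1 and -1. All points against Sham lie above 0 and all points of SCI + SCS against SCI lie below 0, where only Il1b passes -1, with an adjusted P of 0.114.

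Per transcript length (FPKM, fragments scaled by transcript length and library total), the 10 genes fell into an upper set of Pycard, Il18, Casp4, Gsdmd and Casp1 and a lower set of Aim2, Nlrp3, Il1rn, Nlrc4 and Il1b in every group, and the lowest library of the upper set never reached the highest of the lower. In Sham, Il18 was the most abundant at 7.01 ± 0.82 FPKM (SD, n = 3), above Gsdmd at 4.52 ± 0.99, and the order from Gsdmd through Casp4 (3.48 ± 1.02) and Pycard (3.06 ± 1.74) to Casp1 (2.40 ± 0.76) held no pair of neighbours whose libraries were apart. In SCI, Pycard was first at 17.2 ± 2.42 FPKM, followed by Il18 at 16.5 ± 1.70, Casp4 at 13.1 ± 2.48, Gsdmd at 12.3 ± 1.91 and Casp1 at 11.4 ± 1.32, again with overlapping neighbours. With stimulation, Pycard was at 12.7 ± 0.62 FPKM, Il18 at 12.1 ± 2.18, Casp4 at 9.72 ± 0.31, Casp1 at 8.89 ± 0.60 and Gsdmd at 8.66 ± 0.47, with overlap between each pair of neighbours.

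In the lower set, SCI levels were 2.11 ± 0.74 FPKM for Aim2, 1.51 ± 0.37 for Nlrp3 and 1.22 ± 0.22 for Il1rn, which overlapped their neighbours, and below them 0.734 ± 0.15 for Il1b and 0.529 ± 0.19 for Nlrc4. By its mean, Il1b was last in both other groups, at 0.184 ± 0.16 FPKM in Sham and 0.320 ± 0.14 in SCI + SCS. Its libraries overlapped those of Nlrc4 there, which was at 0.313 ± 0.26 in Sham and 0.408 ± 0.07 in SCI + SCS. The length implied by dividing counts by FPKM varied by at most 1.06-fold between libraries for 8 of the genes, but ranged from 1639 to 2391 bases for Il1b and from 1639 to 2425 bases for Casp1. FPKM levels of Il1b and Casp1 are therefore divided by a length that differs between libraries. For Il1b it was 2391 and 2353 bases in Sham replicates 1 and 2, 2331 in SCI + SCS replicate 3 and at most 1715 in the others. Counts are not divided by a length, and whether transcript length affected the counts of these genes was not tested.

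The balance of antagonist and agonist was followed as the ratio of Il1rn to Il1b counts in each library. It was 10.3, 4.4 and 1.51 in Sham, 2.49, 2.38 and 2.51 in SCI, and 2.96, 5.0 and 5.89 in SCI + SCS. The Sham libraries were spread on both sides of the others, while every SCI + SCS ratio lay above every SCI ratio. On the log2 scale the mean was 1.3 ± 0.04 (SD, n = 3) in SCI and 2.15 ± 0.52 in SCI + SCS, a difference of 0.85 (two-sided exact permutation test, p = 0.1, the smallest that 3 libraries against 3 can give). SCI differed from Sham by -0.73 (exact permutation p = 0.4) and SCI + SCS from Sham by 0.12 (exact permutation p = 0.9). Neither exceeded the spread of the Sham libraries, whose mean was 2.03 ± 1.39.

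**Figure D4:**
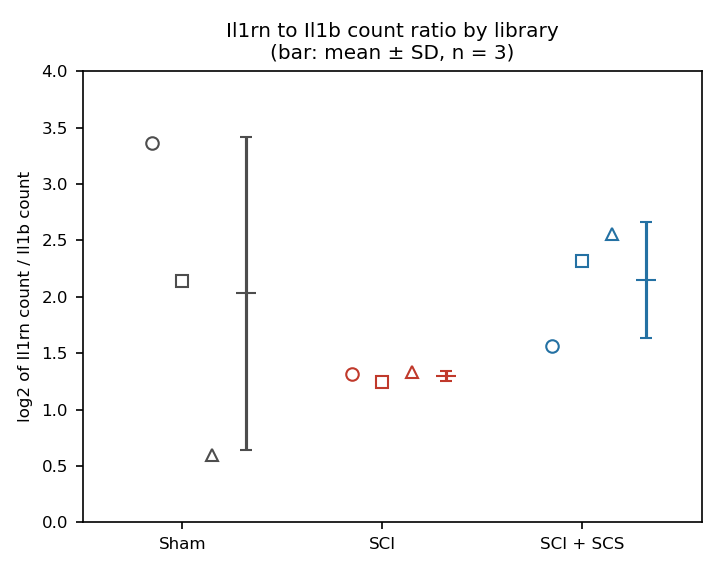
log2 of the Il1rn count divided by the Il1b count (y axis) in each library, with the mean ± SD of the 3 libraries of a group. The SCI libraries sit together near 1.3, the SCI + SCS libraries lie above them, and the Sham libraries range from 0.59 to 3.37.

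Because myeloid markers moved with the groups, each gene was also set against the summed pan-myeloid markers of its library, without a test. Fcer1g, whose counts stand on more than 1 row, made up much of that sum in Sham, and without it the sum was 175 to 302 CPM in Sham, 877 to 1129 in SCI and 755 to 932 in SCI + SCS. Per pan-myeloid level, 78.5% of all genes tested were lower in SCI than in Sham without overlap. Of the 10 genes, 9 overlapped and Il18 was lower (1.59% ± 0.12 of the sum against 2.08% ± 0.41, SD, n = 3). Without Fcer1g, 4 of 10 were lower in SCI without overlap (Nlrp3, Nlrc4, Gsdmd and Il18) and 0 were higher, where 86.4% and 1.44% of all genes were. With Csf1r alone, Pycard and Casp1 were higher in SCI without overlap and the other 8 overlapped, where 3.03% of all genes were higher and 77.0% lower. Il1b was the gene that was lower in SCI + SCS than in SCI without overlap under each of these denominators, at 0.0465% ± 0.015 of the pan-myeloid sum against 0.0817% ± 0.013. Such a separation was found in 1.99% of all genes with the pan-myeloid sum, 2.02% without Fcer1g and 3.48% with Csf1r alone. Under Csf1r alone, Casp1 was lower with stimulation too.

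A wider list of 52 other genes of the pathway, of which 51 were in the files, placed the 10 genes among their neighbours. In SCI against Sham, 21 of the 43 that passed the filter were higher DEGs, where 13.4% of all genes were. Only 1 was a lower DEG, where 13.6% of all genes were. The median log2FC of the 43 was 1.10, against 0.02 over all genes. The share of 13.4% is also the one to set beside the higher DEGs of each group of the list. Among further sensors, 4 of 10 tested were DEGs, with Nlrp6 at 0.314 to 0.420 CPM in Sham and 1.84 to 5.12 in SCI (log2FC 3.20, SE 0.43, adjusted P = 0.00243) and Nod2, a sensor of bacterial cell wall fragments, at 0.193 to 0.220 and 1.62 to 2.07 CPM (log2FC 3.16, SE 0.29, adjusted P = 0.0012). Zbp1, which binds Z-form nucleic acids, had a log2FC of 3.14 (SE 0.57, adjusted P = 0.00541), and Nlrp1a, a sensor of pathogen proteases, one of 1.08 (SE 0.21, adjusted P = 0.00652).

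Of 7 further caspases and substrates tested, 4 were higher DEGs. Ninj1, which mediates the plasma membrane rupture that ends pyroptosis, was at 23.6 to 27.2 CPM in Sham and 82.9 to 97.0 CPM in SCI (log2FC 1.80, SE 0.11, adjusted P = 0.000783). Casp12 (log2FC 1.99, SE 0.39, adjusted P = 0.00726), Casp8 (1.81, SE 0.24, adjusted P = 0.00232) and the gasdermin Gsdma (1.66, SE 0.54, adjusted P = 0.0418) were the others. Gsdma was at most 0.592 CPM.

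Among genes of priming and triggering, 9 of 13 tested were higher DEGs and none lower. The lipopolysaccharide co-receptor Cd14 was at 2.2 to 6.29 CPM in Sham and 23.2 to 30.1 CPM in SCI (log2FC 2.61, SE 0.37, adjusted P = 0.00282). The guanylate-binding protein Gbp2 (log2FC 2.25, SE 0.37, adjusted P = 0.00418), the lysosomal protease Ctsb (1.86, SE 0.17, adjusted P = 0.00121) and the potassium channel Kcnk6 (1.84, SE 0.47, adjusted P = 0.0181) followed.

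Of 5 brakes of the pathway tested, 2 were higher DEGs. Il18bp, the secreted protein that neutralizes IL-18, was at 4.28 to 6.42 CPM in Sham and 22 to 27.5 CPM in SCI (log2FC 2.24, SE 0.19, adjusted P = 0.0011). Il1r2, the decoy receptor of IL-1, was at 0.126 to 0.261 and 0.710 to 1.07 CPM (log2FC 2.2, SE 0.41, adjusted P = 0.00606). Both differences were larger on the log2 scale than those of Il18 (1.22) and Il1b (1.76), a contrast between genes that was not tested. It covers only the 2 brakes that were DEGs. The 5 tested had a median log2FC of 0.81 and a lowest of 0.41. With all libraries, the antagonist Il1rn had a smaller log2FC than either cytokine, also a contrast that was not tested. This order turned without Sham replicate 1, where the log2FC was 1.60 for Il1rn, 1.20 for Il18 and 1.49 for Il1b.

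Of 8 related cytokines and receptors tested, 2 were higher and 1 was lower. Il18rap, a chain of the IL-18 receptor, had a log2FC of 2.30 (SE 0.59, adjusted P = 0.0181) and Il1a, the other IL-1 agonist, one of 1.67 (SE 0.42, adjusted P = 0.017). Il1rap, the accessory chain that the IL-1 receptor needs to signal, was the only lower DEG of the list, at 11.6 to 12.6 CPM in Sham, 3.72 to 4.70 in SCI and 5.91 to 6.34 in SCI + SCS. Its log2FC in SCI against Sham was -1.50 (SE 0.15, adjusted P = 0.00143). Neuron markers fell across the same groups (all 7 lower DEGs, median log2FC -2.16), and so did oligodendrocyte markers (all 5 lower DEGs, median log2FC -1.40). The part of either list in this result was not tested.

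**Figure D5:**
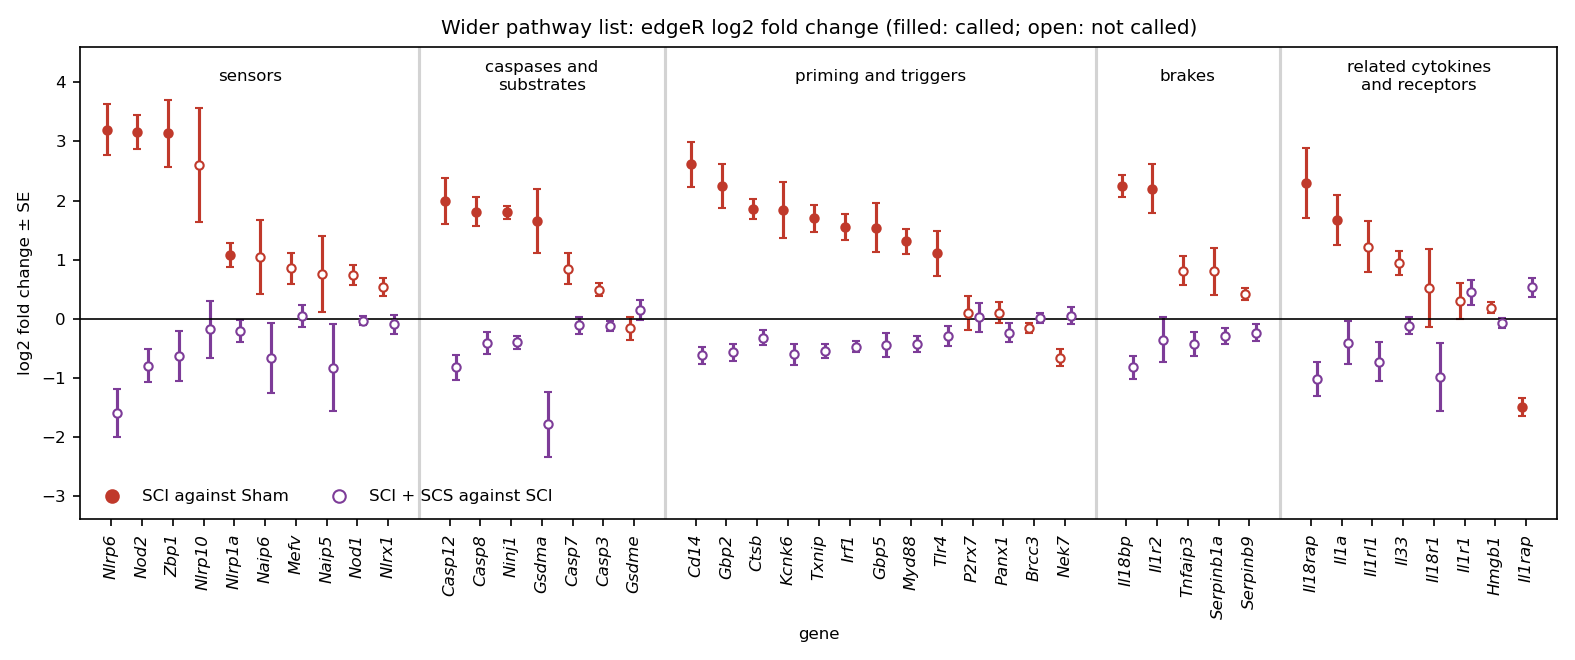
log2 fold change ± SE (y axis) of the wider pathway list in 5 groups of genes, for SCI against Sham (red; filled points are DEGs) and SCI + SCS against SCI (purple; open, none a DEG). Most red points lie above 0, with Il1rap at -1.50 the filled exception, and most purple points lie below 0.

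In SCI + SCS against SCI, 0 of the 44 tested genes of the wider list were DEGs by edgeR, against 1 of all 17663 genes. At an unadjusted P under 0.05, 14 were lower, where 10.9% of all genes were, and 1 was higher. The median log2FC was -0.38. By DESeq2, 12 had an adjusted P under 0.05 and were lower, where 6.41% of all genes were. Of these, Nlrp6 (log2FC -1.6, adjusted P = 0.0035) and Il18rap (-1.03, adjusted P = 0.0171) passed the fold threshold. By that tool, 2.04% of all genes were lower DEGs. At an adjusted P under 0.05 by DESeq2, Il1rap alone was higher (0.52, adjusted P = 0.0224). The shares of all genes that were higher by these P-value rules are not given here, so the higher genes are a description only. Genes of priming and triggering made up 7 of these 12. They included, named after their values were seen, Txnip, a redox protein that binds NLRP3, with a DESeq2 log2FC of -0.56 (adjusted P = 0.000348) and Irf1, an interferon-induced transcription factor, at -0.48 (adjusted P = 0.000669). Against Sham, 12 of 42 tested were higher DEGs in SCI + SCS by edgeR, where 6.28% of all genes were. None was a lower DEG by edgeR, where 960 of all 17640 genes were, or by DESeq2, where 1181 of 22219 were. By each tool, 2 were lower at an adjusted P under 0.05 but did not reach the fold. By edgeR, 2849 of all 17640 genes were lower at an adjusted P under 0.05. The median log2FC was 0.86.

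The genes outside the group whose levels over the 9 libraries were most like the mean profile of the 10 genes were Unc13d, Prdm1, Lpxn, Psd4 and Ticam2. Likeness was the root mean square difference of centred log2(CPM + 0.1) values, among genes with a mean of at least 1 CPM. It was 0.104 for Unc13d, a factor of granule secretion, which was at 3.71 to 5.70 CPM in Sham, 11.3 to 13.5 in SCI and 8.46 to 10.8 in SCI + SCS. It was 0.106 for Prdm1, a transcriptional repressor, 0.112 for Lpxn, a focal adhesion protein of blood cells, 0.114 for Psd4 and 0.128 for Ticam2, an adaptor of Tlr4. In 4 of these 5 genes the SCI + SCS libraries lay between Sham and SCI without overlap, while Psd4 overlapped SCI, and this order is that of the mean profile by which they were chosen. The 10 genes themselves were 0.202 (Casp4) to 0.523 (Pycard) from their mean profile.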

How the data were processed

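Total RNA of spinal cord was enriched for mRNA with oligo(dT) beads. The submitters' processing notes name fastp 0.23.2, HISAT2 2.2.1 and the build mRatBN7.2, while the counting program and its use of strand are not given in the sources used here. The authors deposited raw counts per gene and, in a table of its own, FPKM (counts scaled by gene length and library total), each with 30507 rows for 9 libraries, of which 4340 rows have no symbol and 1081 share an identifier with another row. Libraries were grouped by the authors' labels, which name a single batch.

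Counts were compared with edgeR 4.0.16 (R 4.3.3; TMM, default filter on low counts, quasi-likelihood test, the 6 libraries of a comparison, no covariates) across all genes, with Benjamini-Hochberg adjustment, and a gene was a DEG at an adjusted P under 0.05 and |log2FC| above 1. The SE was |log2FC| divided by the square root of F. DESeq2 1.42.0 and limma 3.58.1, on log2(FPKM + 1) and log2(FPKM + 0.1) where the mean FPKM reached 0.1, were alternatives, and fold changes on those log scales understate low genes. The tests were checked on simulated data. Ratios were compared by exact permutation in SciPy 1.17.1. Between 0.034 and 0.0477 CPM correspond to 3 counts, and such floors cover counting error only, as reads amplified by PCR and lacking molecular tags are not separate molecules.

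The 10 genes and the gene lists were chosen with earlier results of these data known. All 10 were named, and from the wider list up to 4 genes per group with the largest |log2FC| among DEGs of SCI against Sham without overlap, and 5 genes by likeness to the mean profile. A symbol on several rows was read from the row with the highest total. The alternatives were other filters, size factors, tools and fits, unadjusted P-values, no fold threshold, a replicate block, removal of muscle and adipocyte genes, summed rows, FPKM and leaving out each library. The sum of pan-myeloid markers without Fcer1g was added after seeing the data. Same-numbered libraries came from different groups of rats, and what set each apart from its own group correlated between -0.22 and 0.145, so the numbers were not taken as pairs.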

Additional observations from a re-analysis of the deposited data

How the results depend on the processing

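Over the alternatives, the log2FC of the 10 genes kept its direction and its side of the thresholds in 163 of 190 values under other settings for SCI against Sham, 186 of 190 for SCI + SCS against SCI and 164 of 190 for SCI + SCS against Sham, and the cause of the changes was not tested. Nlrp3 turned in SCI + SCS against SCI without SCI replicate 1 (0.15) and without SCI + SCS replicate 3 (0.06), within a range from -0.32 to 0.15. Of the 10 genes, 9 were DEGs in SCI against Sham, against 5 by limma on log2(FPKM + 1), with and without the filter, and 5 to 9 when a library was left out. In SCI + SCS against SCI the count of 0 became 1 (Il1b) with unadjusted P-values or DESeq2 and was 0 for every library left out. In SCI + SCS against Sham the 5 DEGs became 3 with no filter on low counts, with DESeq2 size factors in edgeR and with limma on log2(FPKM + 1), filtered or not, and 2 to 7 when a library was left out. For the wider list, 22 DEGs in SCI against Sham became 13 by limma on log2(FPKM + 1), filtered or not (16 to 25 leaving out a library). Between SCI + SCS and SCI, 0 became 3 with unadjusted P-values and 2 by DESeq2 (0 to 2 leaving out a library), and in SCI + SCS against Sham 12 became 20 without the fold threshold and 6 by limma on log2(FPKM + 1), filtered or not (7 to 19 leaving out a library). Over all genes, 4800 DEGs in SCI against Sham became 8796 without the fold threshold, 2649 by limma on log2(FPKM + 1) and 2550 without its filter (3908 to 5108 leaving out a library). The 1 DEG of SCI + SCS against SCI became 988 with unadjusted P-values, 777 by DESeq2, 20 and 19 by limma on log2(FPKM + 1) and log2(FPKM + 0.1), 0 with at least 10 counts in every library and 0 with rows of an identifier summed (0 to 123 leaving out a library). The 2068 of SCI + SCS against Sham became 5710 without the fold threshold, 921 by limma on log2(FPKM + 1) and 843 without its filter (950 to 2891 leaving out a library). With the replicate block, which pairs libraries that share only a number, SCI against Sham gave 8 of the 10 genes (without Nlrp3) and 4656 genes in all, SCI + SCS against SCI gave 0 and 0, and SCI + SCS against Sham gave 3 of the 10, 3 of the wider list and 715 genes in all. Same-numbered libraries correlated at 0.145, -0.0931 and 0.115 for SCI with Sham. The difference of the log2 ratio of Il1rn to Il1b counts was 0.85 for SCI + SCS against SCI (0.65 to 1.14 leaving out a library) and -0.73 for SCI against Sham (-1.45 to -0.07). For SCI + SCS against Sham it was 0.12, and turned to -0.10 with FPKM, which carries library-specific lengths, to -0.60 without Sham replicate 3 and to -0.09 without SCI + SCS replicate 3 (up to 0.78 otherwise). The median log2 ratio of the genes' level per pan-myeloid level was -0.04 in SCI against Sham and turned to 0.10 with Csf1r alone as denominator. It also turned to 0.35 without Sham replicate 3 and 0.08 without SCI replicate 1 (-0.19 at the lowest leaving out a library). It was -0.51 without Fcer1g. For SCI + SCS against SCI it was -0.14, moved to -0.36 with Csf1r alone and lay between -0.22 and -0.06 leaving out a library. Against Sham, SCI + SCS gave -0.34, which turned to 0.16 without Sham replicate 3 (-0.39 at the lowest leaving out a library). With Csf1r alone this median was lower than with any library left out, and without Fcer1g it was lower still. Depth limits Il1b most, with 13 counts in its lowest library.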
